A study of Homo sapiens with 6 samples.

Results

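The WNT receptors examined here are 8 Frizzled genes, FZD1, FZD2, FZD3, FZD4, FZD5, FZD6, FZD7 and FZD10, and the co-receptor genes LRP5 and LRP6. They were followed in VCaP, an established human prostate cancer line whose genotype is labelled TMPRSS2/ERG, after its SOX9 mRNA was targeted with siRNA. A probe set, the group of array probes that gives 1 value for a transcript, was taken as a member's when the array's annotation named that gene alone. The 10 genes had 22 probe sets and are 10 of the 19775 genes with a probe set of their own. For 10 of 10 genes at least 1 probe set lay above the filter level for dim signals, a mean log2 value of 5.25 or a signal of 22.0. In all, 19 of the 22 probe sets passed it and 3 did not. FZD9 is not among the members, and the probe sets that carry the FZD8 symbol also carry another gene's and were not analysed here.

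Frizzled proteins are membrane-spanning receptors whose cysteine-rich outer domain binds WNT ligands. In the canonical pathway a WNT brings a Frizzled together with LRP5 or LRP6, Dishevelled and Axin are drawn to the membrane, and beta-catenin escapes destruction and works with TCF/LEF factors in the nucleus. Frizzleds also signal without LRP5 and LRP6, in planar cell polarity and calcium pathways. In prostate cancer, WNT signalling has been studied as a driver of growth and of resistance to androgen deprivation.

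There were 3 groups of 2 arrays: cells with SOX9 siRNA A, cells with SOX9 siRNA B, and cells with a non-targeting control siRNA. All cells were grown in DMEM with serum, and RNA was taken 72 h after transfection. No source used here gives the sequences of the siRNAs, the work rests on 1 cell line, and the design text calls the 2 arrays of a group biological duplicates, without naming cultures. Values are MAS5 signals on a linear scale, 1 per probe set, and tests used log2(signal + 16).

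The line's luminal prostate markers were bright, with KLK2 (a prostate kallikrein) at 15122 to 17512.6 and ERG, the fusion's transcription factor, at 1353 to 2726 over the 6 arrays. All 8 luminal markers that had a probe set of their own passed the filter. Markers of other cells were mostly dim: 1 of 5 fibroblast, 1 of 3 endothelial, 1 of 4 leukocyte and 1 of 2 basal markers passed. The summed fibroblast signal was 127 and 55 under siRNA A, 264 and 255 under siRNA B and 164 and 133.1 under control siRNA, most of it COL1A1, so it was not lower with both siRNAs. COL3A1, a defining fibroblast collagen, lay between 1.8 and 15.0. Array totals differed, with a trimmed mean signal from 144 to 190. The replicate 2 arrays of both SOX9 siRNAs differed most from the others: over the genes tested they correlated with the 2 control arrays at 0.943 to 0.968, and the replicate 1 arrays at 0.981 to 0.988. FZD7, FZD1, FZD2 and FZD5 are therefore also given without them.

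SOX9 itself was 1108 and 673 under siRNA A, 609 and 333.5 under siRNA B and 1469 and 1126 under control siRNA. Its 4 SOX9 siRNA arrays lay below both controls, the lowest being replicate 2 of siRNA B. The log2 fold change for both siRNAs, -1.02 (SE 0.29), was not called (limma adjusted p = 0.425), but was once the model held replicate number as a blocking term (limma adjusted p = 0.00184). That fit, called the blocked fit below, takes its spread from limma's trend alone, which can make its p-values too small. It called SOX9 with siRNA B (-1.48, limma adjusted p = 1.76e-05) but not with siRNA A (-0.57, limma adjusted p = 0.528). It also called the difference, A minus B, of 0.91 (limma adjusted p = 0.0411). Without the block neither siRNA's change was called (limma adjusted p = 0.999 for A and 0.111 for B). Under each of 3 other scalings (quantile, median and trimmed mean), 3 of the 4 arrays lay below both controls. The other SOX9 probe set had 861 and 586 under siRNA A, 569.8 and 293 under siRNA B and 1558 and 1269.6 under control siRNA, all siRNA arrays below both controls, and its log2 fold change was -1.36.

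Of the 10 receptor genes, 1 was called lower and 0 higher when both SOX9 siRNAs were compared with control siRNA. In that comparison 0.0402% of all genes tested were called. The gene called was FZD7, a Frizzled that transmits both canonical and polarity signals and is known from stem cells and several tumours. An earlier report on these data had named FZD7, so its change was known and the count is no test of the set. FZD7 was not called with siRNA A alone (limma adjusted p = 0.341). For both siRNAs it was called in 10 of 22 alternatives. Its signal was 74.8 and 34.7 under siRNA A, 41.5 and 19.6 under siRNA B and 162 and 201.5 under control siRNA. All 4 SOX9 siRNA arrays were below both controls, and in each siRNA replicate 2 was the lower array. Replicate 2 of siRNA B lay below the filter level.

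FZD7 averaged 54.8 ± 28.4 under siRNA A, 30.6 ± 15.5 under siRNA B and 182 ± 28.0 under control siRNA (SD, n = 2 each). These means were 30.1% and 16.8% of the control mean. On the log2(signal + 16) scale the fold change for both siRNAs was -1.83, with a 95% interval from -2.44 to -1.21 (limma adjusted p = 0.0325), and 0.0402% of the 12431 genes tested were called in this comparison, 0.0161% as lower and 0.0241% as higher. FZD7 ranked 4 by p among the genes tested. In bulk RNA, fewer cells with a transcript and less of it per cell cannot be told apart.

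The call depended on the replicate 2 arrays and on the scaling. Without replicate 2 of both SOX9 siRNAs the fold change of FZD7 was -1.44 and did not pass (limma adjusted p = 0.268), and without replicate 1 of both it was -2.21 (limma adjusted p = 0.000105). Those fits took the 2 remaining siRNA arrays as 1 group. Leaving out replicate 2 of siRNA A alone gave -1.62 (limma adjusted p = 0.224), and leaving out that of siRNA B alone gave -1.66 (limma adjusted p = 0.232). The call was also lost after quantile normalization (-1.78, limma adjusted p = 0.548), median centring (-1.79, limma adjusted p = 0.430) and scaling to a common trimmed mean (-1.80, limma adjusted p = 0.565), with all 4 siRNA arrays still below both controls in each.

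**Figure D1:**
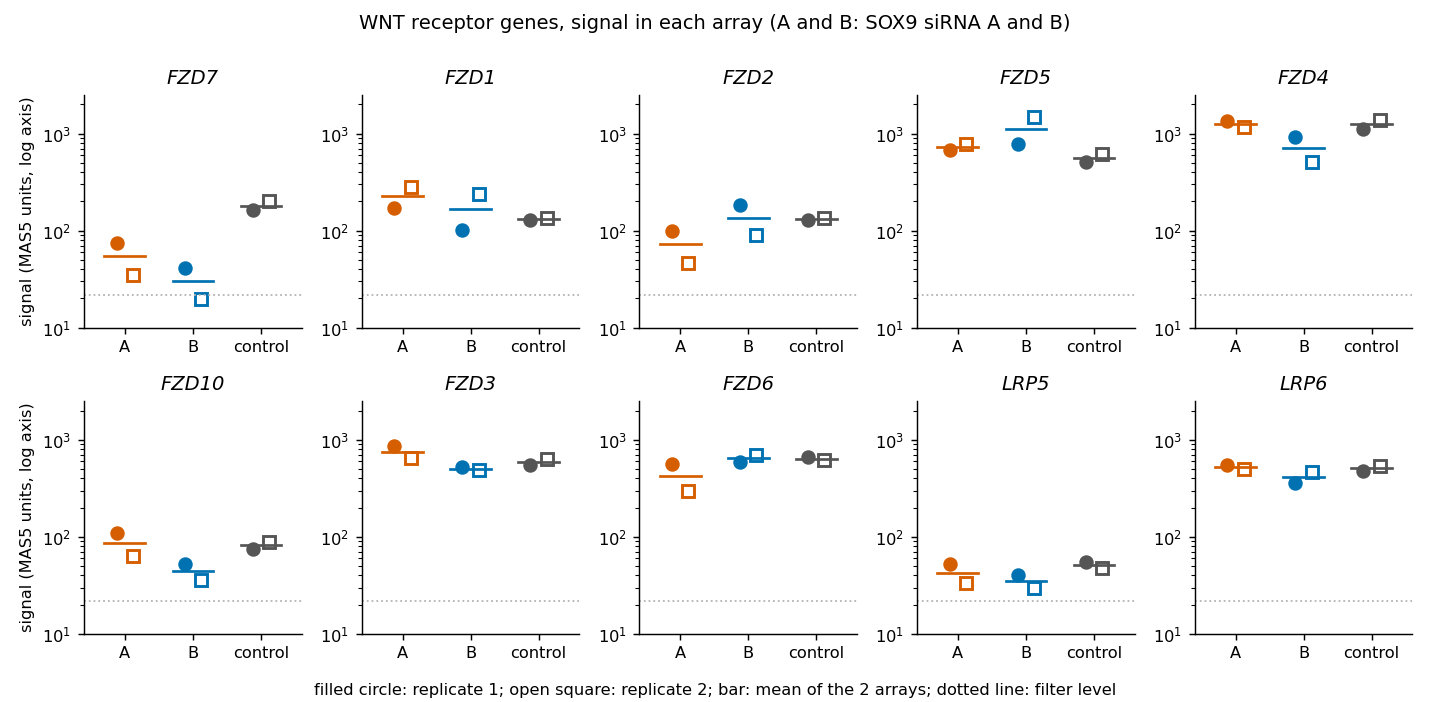
Signal of the representing probe set of each receptor gene (MAS5 units, log axis) in the arrays of both SOX9 siRNAs, A then B, and of control siRNA; circles are replicate 1, squares replicate 2, bars the mean of 2 arrays, and the dotted line the filter level of 22.0. FZD7 has all 4 SOX9 siRNA arrays, at 19.6 to 74.8, below both controls, at 162 and 201.5.

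The siRNAs were also compared with control one at a time. With siRNA B, FZD7 had a log2 fold change of -2.12 (SE 0.33, limma adjusted p = 0.0123) and was the 1 member called, where 0.185% of all genes were, 0.0965% as lower and 0.0885% as higher. Without replicate 1 of siRNA A, whose array enters only through the shared spread, its limma adjusted p was 0.0503. The siRNA B call was also lost with quantile normalization (limma adjusted p = 0.238), median centring (0.184), a common trimmed mean (0.247) and no filter (0.362), and it held in 12 of 20 alternatives. With siRNA A it was at -1.54 (SE 0.33) and was not called (limma adjusted p = 0.341). The blocked fit called it with siRNA A too (limma adjusted p = 2.81e-05), along with 1.80% of all genes. With that siRNA limma called 0 of 10 members, 2 had an unadjusted p below 0.05, and 0.0161% of all genes were called. The difference between the siRNAs, A minus B, was 0.58 with an interval from -0.12 to 1.29 (limma adjusted p = 0.743). Both comparisons share the control arrays.

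A second FZD7 probe set gave the same array order. Its signal was 61.6 and 25.4 under siRNA A, 40.5 and 23.2 under siRNA B and 91.7 and 104.5 under control siRNA, again with all 4 SOX9 siRNA arrays below both controls. Its log2 fold change for both siRNAs was -1.14, smaller than the -1.83 of the first. When all 27307 probe sets above the filter level were fitted in place of 1 per gene, the first had a limma adjusted p of 0.0824 and the second of 0.484, so 0 receptor probe sets were called for both siRNAs, where 0.00366% of all probe sets were. For siRNA B the first was called in that fit (limma adjusted p = 0.0357). The 2 probe sets share the gene and the arrays and are not replicates.

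FZD1 and FZD2 are the closest relatives of FZD7 within the family, and neither passed the test. FZD1 had a signal of 172.5 and 284 under siRNA A, 101.5 and 237 under siRNA B and 129 and 134 under control siRNA. Of the 4 siRNA arrays, 3 were above both controls and replicate 1 of siRNA B was below them. The log2 fold change for both siRNAs was 0.46, with an interval from -0.18 to 1.09 (limma adjusted p = 0.784).

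FZD2 had 100.2 and 46.2 under siRNA A, 182 and 89.9 under siRNA B and 130.3 and 136 under control siRNA. Replicate 1 of siRNA B was above both controls and the other 3 siRNA arrays below. The log2 fold change was -0.43 for both siRNAs (limma adjusted p = 0.806), -0.81 for siRNA A and -0.04 for siRNA B. A second FZD2 probe set was at -0.16 for both siRNAs.

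In these relatives the replicates of each SOX9 siRNA lay further apart than those of control siRNA. Replicate 2 minus replicate 1 of FZD1 was 0.67 in siRNA A, 1.10 in siRNA B and 0.05 in control siRNA on the log2 scale. For FZD2 it was -0.90, -0.90 and 0.05, and for FZD7 -0.84, -0.69 and 0.29, in the same order of groups. Averaged over the siRNAs, this difference was larger in size than in 95.4% of all genes for FZD1, 95.7% for FZD2 and 92.6% for FZD7. The sign was shared by both siRNAs in 8 of 10 members and in 60.3% of all genes tested. Without replicate 2 of both SOX9 siRNAs, FZD1 was at 0.01 and FZD2 at 0.03. Whether the cultures, the transfection or the RNA of these arrays differed was not tested.

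FZD5, a receptor that works with LRP6 in canonical signalling, was the member with all 4 SOX9 siRNA arrays above both controls, a pattern that 4.56% of all genes tested showed. Its signal was 675 and 782 under siRNA A, 791 and 1469.5 under siRNA B and 517 and 615 under control siRNA. The siRNA B arrays were both above the siRNA A arrays, and replicate 2 of siRNA B was the highest. The log2 fold change was 0.64 for both siRNAs (interval from 0.06 to 1.22, limma adjusted p = 0.607), 0.36 for siRNA A and 0.92 for siRNA B (limma adjusted p = 0.273), and it did not pass. FZD5 and FZD7 were the 2 members with an unadjusted p below 0.05 for both siRNAs.

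The other FZD5 probe set was dimmer, with 35.0 and 74.0 under siRNA A, 43.5 and 101 under siRNA B and 13.3 and 39.6 under control siRNA. Of the 4 siRNA arrays, 3 were above both controls and replicate 1 of siRNA A lay between them. Its log2 fold change for both siRNAs was 0.90. Without replicate 2 of both SOX9 siRNAs the representing probe set was at 0.37 (limma adjusted p = 0.946), and without replicate 1 of both at 0.91 (limma adjusted p = 0.102). Its all-above pattern held under each of the 3 other scalings.

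The RefSeq promoter windows of GRCh38.p14, which run from 250 bases before to 50 after the start of a gene, held 4 of the 10 members: FZD1, FZD4, FZD5 and LRP5. Shown are FZD5 and FZD1, the members in the table with a positive log2 fold change for both siRNAs, with the 1 motif match in capitals.
FZD5, chr2:207769857-207770156, minus strand: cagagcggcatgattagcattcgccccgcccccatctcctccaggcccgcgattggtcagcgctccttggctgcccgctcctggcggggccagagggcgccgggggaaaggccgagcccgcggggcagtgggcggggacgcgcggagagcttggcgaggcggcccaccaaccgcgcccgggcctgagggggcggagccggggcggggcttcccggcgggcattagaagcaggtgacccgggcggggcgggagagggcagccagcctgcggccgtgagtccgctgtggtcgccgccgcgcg
FZD1, chr7:91264183-91264482, plus strand: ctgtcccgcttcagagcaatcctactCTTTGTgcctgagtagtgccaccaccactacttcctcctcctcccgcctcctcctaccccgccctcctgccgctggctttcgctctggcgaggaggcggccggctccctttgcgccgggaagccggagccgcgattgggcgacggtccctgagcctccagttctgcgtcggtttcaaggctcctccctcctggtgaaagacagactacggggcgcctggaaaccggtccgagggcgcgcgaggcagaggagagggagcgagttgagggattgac

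Both strands were searched for the SOX cores ACAAAG and ACAATG and the TCF/LEF core TCAAAG. FZD1 held 1 match, the reverse complement of ACAAAG, at position -224 from the start site. FZD4, FZD5 and LRP5 held 0 matches, which says only that these letters are not in these windows. Of all 35116 windows, 16.1% held ACAAAG, 10.8% ACAATG, 12.9% TCAAAG and 33.2% at least 1 of the 3. The windows of the receptors were rich in G and C, at 65.7% for FZD1, 77.0% for FZD5, 79.7% for FZD4 and 86.7% for LRP5, where the median window had 58.7%.

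FZD4, which also serves norrin in blood vessel growth, and FZD10 were low under siRNA B and near control under siRNA A. FZD4 had 1343 and 1186 under siRNA A, 921 and 511 under siRNA B and 1117 and 1380.1 under control siRNA. Both siRNA B arrays lay below both controls, and the siRNA A arrays lay between the controls. With siRNA B the log2 fold change was -0.84 (SE 0.31, limma adjusted p = 0.2996), and under siRNA A 0.02.

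FZD10 had 109 and 62.8 under siRNA A, 52.2 and 35.9 under siRNA B and 75.8 and 89.0 under control siRNA. Its siRNA A arrays lay on either side of the controls and its siRNA B arrays below them. The log2 fold change was -0.72 under siRNA B (limma adjusted p = 0.385) and 0.01 under siRNA A. In the direct comparison, siRNA A minus siRNA B was 0.86 for FZD4 (limma adjusted p = 0.382) and 0.74 for FZD10 (limma adjusted p = 0.517), so neither difference passed. Markers of other cells were mixed. The summed basal epithelial signal was 63.0 and 65.2 under siRNA A, 15.3 and 37.7 under siRNA B and 43.7 and 31.6 under control siRNA. In the same order of groups, the basal marker KRT14 had 45.3 and 51.5, 10.3 and 20.2, and 22.1 and 27.3. Its siRNA B arrays lay below both controls and its siRNA A arrays above them. The endothelial sum was 43.2 and 76.6, 35.7 and 33.0, and 39.6 and 49.4, with both siRNA B arrays below both controls. The leukocyte sum was 76.8 and 105.2, 58.9 and 106.6, and 59.2 and 75.9. The fibroblast sum was highest under siRNA B. The part of other cells in the FZD4 and FZD10 values was not tested. Of the 10 members 0 were called between the siRNAs in limma, 3 had an unadjusted p below 0.05, and 0.0965% of all genes were called, 0.0483% in each direction.

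A second FZD4 probe set had a lower signal and the same split, with 52.9 and 51.6 under siRNA A, 30.7 and 19.5 under siRNA B and 40.2 and 45.4 under control siRNA. Leaving out replicate 1 of siRNA B, FZD4 had -1.25 under siRNA B (limma adjusted p = 0.0182) and FZD5 1.36 (limma adjusted p = 0.0162), so that 3 members were called with that siRNA in place of 1, in a fit that called 8.07% of all genes. In the blocked fit FZD4 (limma adjusted p = 0.0399) and FZD5 (limma adjusted p = 0.0243) were also called with siRNA B, where 5.89% of all genes were. Leaving out replicate 2 of siRNA B, FZD4 was at -0.42 and FZD5 at 0.48, and FZD7 was at -1.77 and no longer called.

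**Figure D2:**
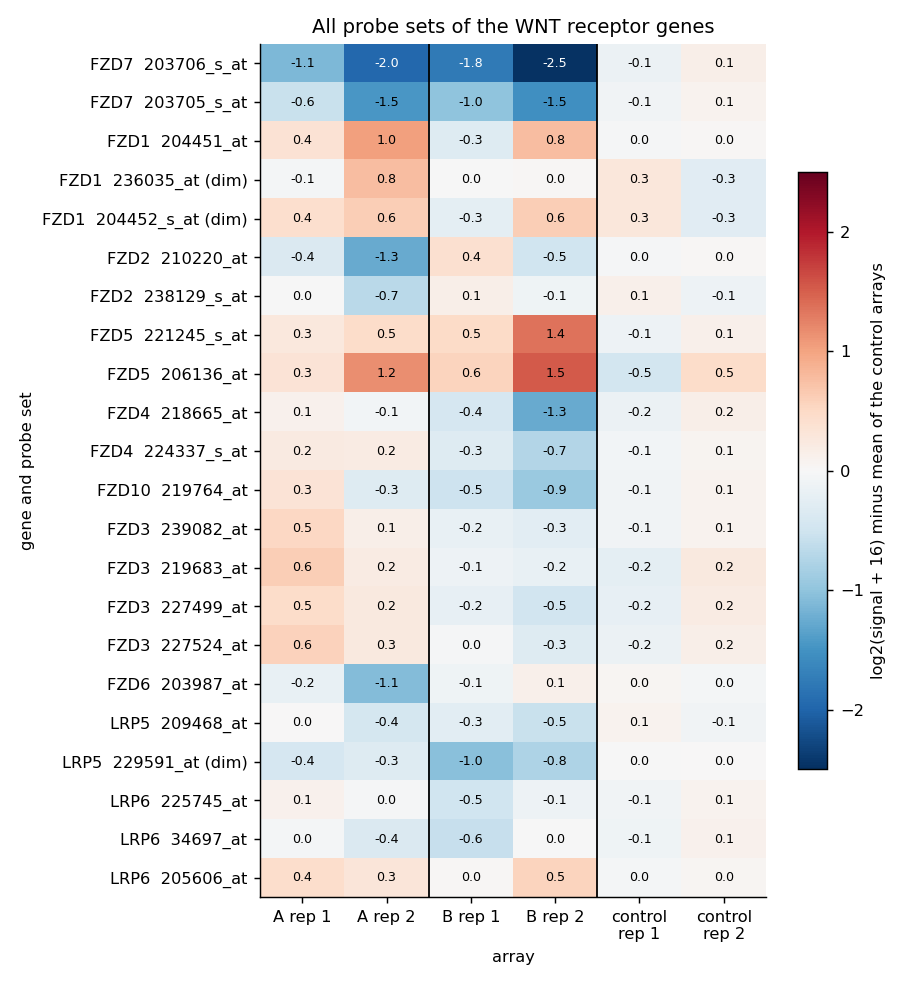
Heat map of all 22 probe sets of the receptor genes in the 6 arrays, as log2(signal + 16) minus the mean of the 2 control arrays; columns run from SOX9 siRNA A through siRNA B to control siRNA, and probe sets below the filter level are marked dim. Both FZD7 rows are negative in all 4 SOX9 siRNA arrays, both FZD5 rows are positive, and the 4 FZD3 rows have siRNA A above siRNA B.

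FZD3 and FZD6 are the Frizzleds best known for planar cell polarity and nerve tract formation, and 0 of these 2 passed the test. FZD3 had 854 and 656 under siRNA A, 521 and 488 under siRNA B and 556 and 633 under control siRNA. Both siRNA A arrays were above both controls, and both siRNA B arrays below. After quantile normalization or scaling by the trimmed mean, 1 siRNA B array lay above both controls as well. All 4 FZD3 probe sets had both siRNA A arrays above both siRNA B arrays, with A minus B from 0.55 to 0.70 on the log2 scale. For the representing one it was 0.55 (limma adjusted p = 0.672), and over both siRNAs the log2 fold change was 0.05, with an interval from -0.47 to 0.57.

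FZD6 had 562.5 and 293 under siRNA A, 592 and 698.5 under siRNA B and 658 and 618 under control siRNA. Both siRNA A arrays lay below both controls, replicate 2 being the lowest, and the siRNA B arrays lay on either side of the controls. Under each of the 3 other scalings, 2 siRNA arrays lay below both controls. Its log2 fold change was -0.63 under siRNA A and 0.01 under siRNA B, and for both siRNAs -0.31 (limma adjusted p = 0.867). Without replicate 2 of siRNA A it was -0.18 under siRNA A.

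The co-receptors LRP5 and LRP6, which carry the WNT signal across the membrane beside a Frizzled, did not pass the test. LRP6 had 553 and 503 under siRNA A, 355 and 466 under siRNA B and 482 and 542 under control siRNA. Its siRNA A arrays overlapped the controls and its siRNA B arrays were below both. The log2 fold change for both siRNAs was -0.14, with an interval from -0.66 to 0.39 (limma adjusted p = 0.942). The 3 LRP6 probe sets did not share a sign, running from -0.25 to 0.33.

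LRP5 had 52.1 and 33.6 under siRNA A, 40.1 and 30.0 under siRNA B and 55.6 and 47.2 under control siRNA. Of the 4 siRNA arrays, 3 lay below both controls and replicate 1 of siRNA A between them. Its log2 fold change was -0.31 for both siRNAs (interval from -0.86 to 0.24, limma adjusted p = 0.858). A second LRP5 probe set had all 4 siRNA arrays below both controls, at 3.1 to 15.2 under the SOX9 siRNAs and 22.8 and 23.6 under control siRNA, but its mean was below the filter level and it was not tested.

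**Figure D3:**
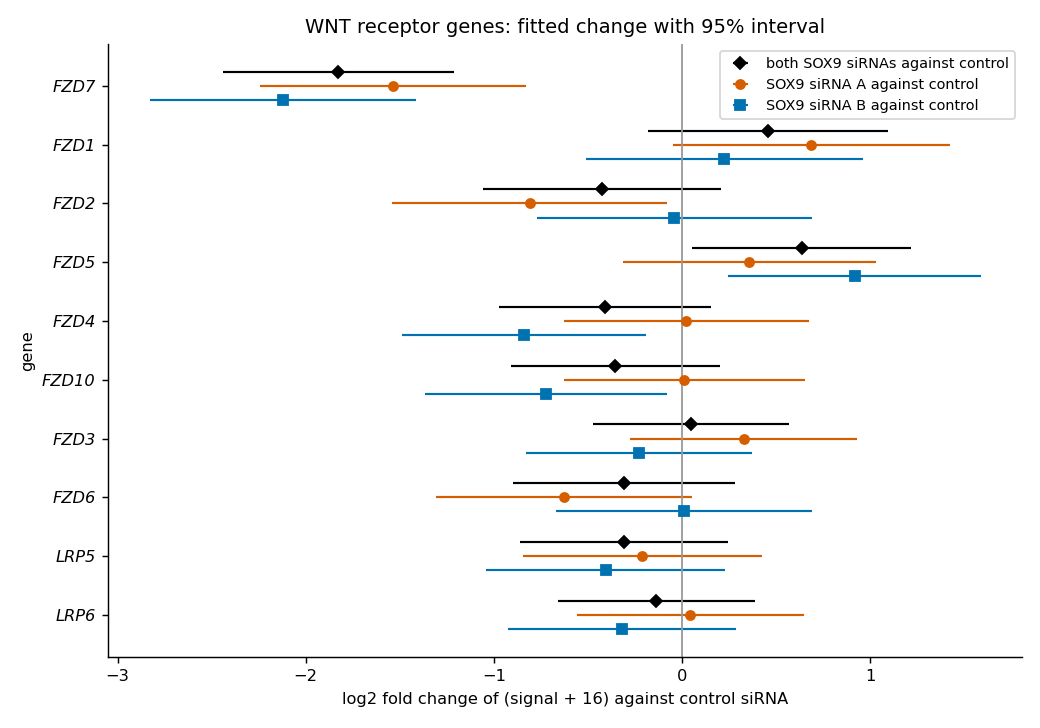
Fitted log2 fold change of (signal + 16) of each receptor gene for both SOX9 siRNAs, siRNA A and siRNA B against control siRNA, with 95% intervals from limma. FZD7 lies at -1.83, -1.54 and -2.12, and the other genes lie between -0.84 and 0.92.

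Read as a set, 7 of the 10 genes had a negative log2 fold change for both siRNAs and 3 a positive one. The median was -0.31, beside -0.04 over all genes tested, of which 55.2% were negative. With siRNA A alone 4 of 10 were negative with a median of 0.02, and under siRNA B 7 of 10 with a median of -0.27, where the medians over all genes were -0.05 and -0.02. All 4 SOX9 siRNA arrays lay below both controls for 1 member, FZD7, a pattern that 11.8% of all genes showed. Apart from FZD7, no member passed the test in any of the 4 comparisons.

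**Figure D4:**
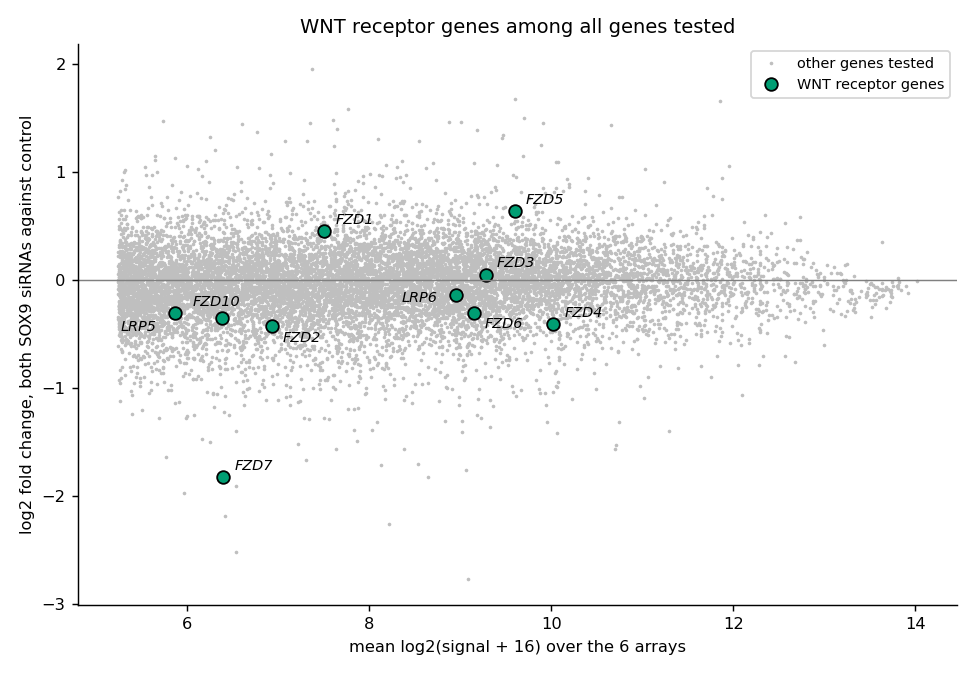
Log2 fold change for both SOX9 siRNAs against control siRNA over the mean log2(signal + 16) of the 6 arrays, for 12431 genes in grey and the 10 receptor genes in green. FZD7, at -1.83, lies near the lower edge of the cloud, and the other 9, at -0.43 to 0.64, lie within it.

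The genes whose profile was nearest to that of FZD7 were found by the root mean square difference of log2 values, each relative to its own control mean, over the 6 arrays. They were TESC, a calcium-binding protein gene (0.20), SLC24A2, a sodium-calcium exchanger (0.27), ART3, an ADP-ribosyltransferase family gene (0.35), NPY6R, a neuropeptide Y receptor pseudogene (0.39), and CXCL5, a chemokine (0.44). The median over the other 12430 genes was 1.54. SOX9 stood at 0.70 and ranked 62. TESC had 410.0 and 229 under siRNA A, 258 and 120 under siRNA B and 846.5 and 755.5 under control siRNA. Replicate 2 was the lower array of each siRNA, as in FZD7, a likeness that follows from choosing genes by profile. The log2 fold change of TESC for both siRNAs was -1.71 (limma adjusted p = 0.0663). The nearest other receptor was FZD4, at 1.18 and rank 1157.

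**Figure D5:**
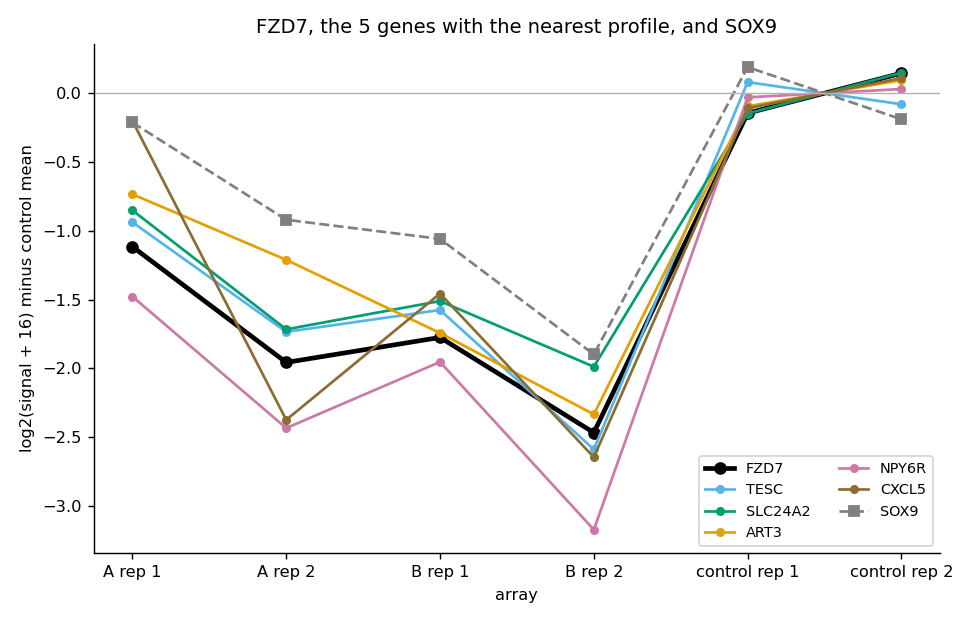
Log2(signal + 16) minus the control mean in each array for FZD7 (black), the 5 genes with the nearest profile (colours) and SOX9 (dashed); lines only join the points of a gene. FZD7 runs from -1.12 in replicate 1 of siRNA A to -2.47 in replicate 2 of siRNA B, and SOX9 from -0.21 to -1.90 in the same arrays.

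The rest of the WNT pathway was read from 8 gene lists, and 0 of their genes were called for both siRNAs in limma. An unadjusted p below 0.05 was found for 7.76% of all genes tested, against which the counts below are read. The blocked fit, read for these lists after the data were seen, called 8 of the 97 listed genes, 8.25%, where 3.54% of all genes were called. DKK3, TCF7L2, NRCAM, MYC and VEGFA were lower, and WNT5A, TLE4 and BAMBI higher. VEGFA, at -1.31 with all arrays, was named after its value was seen. Of 13 other receptors and co-receptors tested, 10 had a negative log2 fold change and 2 an unadjusted p below 0.05. These were the proteoglycan gene SDC1 (-0.68) and the adhesion molecule gene MCAM (-0.61), while the receptor tyrosine kinase genes ROR1 and RYK were at 0.49 and -0.41. SDC1 had 611 and 482 under siRNA A, 309.9 and 189.5 under siRNA B and 537 and 658.5 under control siRNA, lower in the siRNA B arrays as FZD4 was. Of the 20 ligands listed, 4 passed the filter, 2 of them with an unadjusted p below 0.05. WNT5A, a ligand of the non-canonical branch, was at 0.97 (limma adjusted p = 0.494) and WNT2 at -0.65, with WNT10B at -0.44 and WNT6 at 0.20.

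All 8 tested genes of the secreted and membrane WNT modulator list had a negative log2 fold change for both siRNAs and for each siRNA. Most of the list are antagonists, but CTHRC1 is not a plain one. The median for both was -0.51, beside -0.04 over all genes tested, of which 55.2% were negative. In 5 of the 8 all 4 siRNA arrays lay below both controls, as in 11.8% of all genes. Without replicate 2 of both SOX9 siRNAs, CTHRC1 was at -0.02 and APCDD1 at -0.26, while SOSTDC1 was at -0.73 and KREMEN2 at -0.59. The 8 included DKK3 (-1.12, limma adjusted p = 0.462), SOSTDC1 (-0.68), KREMEN2 (-0.53) and APCDD1 (-0.49). The R-spondin and receptor turnover list, whose products set how long Frizzleds stay on the surface, had 5 genes tested, 3 of them negative. The R-spondin receptor gene LGR4 was at -0.32, the ubiquitin ligase genes ZNRF3 and RNF43 at -0.23 and 0.19, and TMEM131L at 0.36. Of 8 genes of receptor maturation and WNT secretion, 6 were positive, with WLS, the WNT carrier, at -0.34, SHISA2 at 0.21, SHISA5 at 0.18 and TMEM59 at 0.12.

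Below the receptors, 14 of 33 cytoplasmic genes were positive and 0 had an unadjusted p below 0.05. The Dishevelled gene DVL2 was at 0.39, BTRC at -0.37, AP2M1 at 0.49 and the inhibitor NKD2 at -0.53. Of 13 nuclear effectors, 8 were negative, with TCF7L2 at -0.81, the beta-catenin inhibitor CTNNBIP1 at -0.64, the co-repressor TLE4 at 1.05 and PYGO1 at -0.50. Of 18 beta-catenin/TCF target genes tested, 12 were negative, where 55.2% of all genes were, and 7 had an unadjusted p below 0.05, among them NRCAM at -1.14, BAMBI at 0.76, MYC at -0.78 and PPARD at -0.63. Of the 26 targets listed, 10 also stand in another list.

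Several of these values were carried by the replicate 2 arrays. TLE4 had 51.3 and 215 under siRNA A, 46.9 and 188 under siRNA B and 42.1 and 41.0 under control siRNA, and was at 0.18 without replicate 2 of both SOX9 siRNAs. Without those arrays VEGFA was at -0.17, WNT5A at 0.46, WNT2 at -0.33 and DKK3 at -0.57. TCF7L2 was then at -0.30, CTNNBIP1 at -0.33 and MYC at -0.40, while NRCAM was at -0.99 and BAMBI at 0.83.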

How the data were processed

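The authors deposited MAS5 signals, a linear-scale intensity for each probe set of the Affymetrix U133 Plus 2.0 array, per the submitters' processing notes. The MAS5 version and target were not given in the sources used here. Control probe sets (62 of 54675) were left out. Of the others, 41091 had 1 gene symbol, 1801 several and 11721 none. The probe set with the highest mean stood for its gene, and genes whose mean fell under the median probe set were filtered out, leaving 12431 tested and 7344 not.

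Tests used limma 3.58.1 in R 4.3.3 on log2(signal + 16), with 3 groups over 6 arrays (3 residual degrees of freedom), eBayes with an intensity trend, and Benjamini-Hochberg adjustment over all genes tested. A gene was called at an adjusted p below 0.05. Fold changes on this scale understate those of dim genes. The test was checked on simulated data in which the arrays varied independently. That check does not cover differences shared by arrays with the same replicate number. The groups share replicate numbers, and no label ties a number to a culture or day. Around their group means, arrays with the same number had a correlation of 0.63 between the siRNAs and of 0.18 between each siRNA and control, so fits with the number as a block are given where they change a call. That choice came from the data, with the calls of the blocked fit known. With so few arrays precision is low, and p-values measure the spread between these arrays, which may be technical. Named are the members, SOX9, the 5 genes nearest to FZD7, and in each list any called gene and up to 4 genes with the smallest p. CTHRC1 is named in addition, because its list is otherwise one of antagonists. The members and gene lists were chosen with earlier results of these data known. Alternatives varied the offset, scaling, filter, probe set summary, moderation, samples, replicate block and threshold.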

Additional observations from a re-analysis of the deposited data

Results flagged for a closer look

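For FZD3 both siRNA A arrays lay above the control mean and both siRNA B arrays below it. Of all genes tested, 8.44% showed such a split in 1 of the 2 directions. Neither change from control was called, 0.33 with siRNA A (limma adjusted p = 0.999) and -0.23 with siRNA B (limma adjusted p = 0.835). After quantile normalization or scaling by the trimmed mean, 1 siRNA B array lay above both controls. The difference, siRNA A minus siRNA B, was 0.55 on the log2 scale (SE 0.28) and did not pass its test (limma adjusted p = 0.672). It ran from 0.37 to 0.74 when single arrays were left out.

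MET, a receptor tyrosine kinase gene on the beta-catenin/TCF target list, differed between the siRNAs. Its signal was 30.0 and 25.5 under siRNA A, 143 and 227 under siRNA B and 74.2 and 103 under control siRNA, so that the siRNA A arrays were below and the siRNA B arrays above both controls. SiRNA A minus siRNA B was -2.17 on the log2 scale (SE 0.296, limma adjusted p = 0.00568), in a comparison that called 0.0965% of all genes. The call was lost with quantile normalization, median centring and a common trimmed mean, where 0 genes were called between the siRNAs. The blocked fit called MET (limma adjusted p = 1.69e-11), along with 2.90% of all genes.

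No group held enough arrays for a check of single outlying arrays.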

How the results depend on the processing

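The log2 fold change of FZD7 for both siRNAs kept its sign in 22 of 22 alternatives and was called in 10. It was not called at -2.21 with log2(signal + 1), -1.78 with quantile normalization, -1.79 with median centring, -1.80 with a common trimmed mean, -1.48 as the median over its probe sets, -1.44 without replicate 2 of both SOX9 siRNAs, and -1.83 with no filter, without an intensity trend, with the SOX9 siRNA arrays as 1 group or at an adjusted p below 0.01. Without single arrays it ran from -2.04 to -1.62. Over the alternatives its limma adjusted p ran from 9.13e-11 to 0.728. The count of members called for both siRNAs, 1, became 0 in each of these settings, with the stricter filter, which left FZD7 out and 6 members in, and with every probe set in place of 1 per gene. It was 2 with the replicate block and median centring, and 0 to 1 without single arrays. For siRNA B it was 0 with quantile normalization, median centring, a common trimmed mean, no filter, the stricter filter, only the groups compared and an adjusted p below 0.01, and 0 to 3 without single arrays. For siRNA A it was 0 in the alternatives without the block, and between the siRNAs it was 0 to 1 without single arrays. Receptor probe sets called, 0 of 19, were 1 with log2(signal + 64), 1 at an adjusted p below 0.10, 3 without replicate 1 of both SOX9 siRNAs and 0 to 1 without single arrays.

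The count of all genes called for both siRNAs, 5, was 9 with log2(signal + 64), 9 with the stricter filter, 1 with every probe set, 1 without an intensity trend, 1 at an adjusted p below 0.01, 14 at an adjusted p below 0.10, 578 without replicate 1 of both SOX9 siRNAs and 0 to 62 without single arrays. It was 0 in limma with quantile normalization, median centring, a common trimmed mean, no filter, the siRNA arrays as 1 group and without replicate 2 of both SOX9 siRNAs, where genes at an unadjusted p below 0.05 numbered 1117, 1004, 1082, 1225, 739 and 563. The cause of these shifts was not tested.

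With the replicate number as a block, 440 genes (3.54%) were called for both siRNAs, and 550 with median centring added. Members called were then 1 for both siRNAs, FZD7 at -1.83 (limma adjusted p = 9.13e-11), 1 for siRNA A (FZD7), 3 for siRNA B (FZD4, FZD5 and FZD7) and 0 between the siRNAs. These fits called 1.80%, 5.89% and 2.90% of all genes for siRNA A, siRNA B and A against B. The block changed no other member's call. With median centring added they were 2, 1, 3 and 1, where 4.42%, 1.62%, 8.53% and 4.73% of all genes were called, and receptor probe sets called were 3 and 4. With the block, limma took the spread from its trend alone, which can make these p-values too small.

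Of 40 pairs of a member and a comparison, 29 kept their sign in each alternative run. The 11 that did not were uncalled, FZD2 for both siRNAs at -0.43 and FZD1 between the siRNAs at 0.46 with all arrays among them. FZD2 for both siRNAs was 0.025 without replicate 2 of both SOX9 siRNAs, FZD3 -0.066 without replicate 1 of both, and LRP6 with siRNA A -0.068 as the median over its probe sets. Without single arrays, FZD3 for both siRNAs ran from -0.043 to 0.14. With siRNA A, FZD4 ran from -0.13 to 0.17, FZD10 from -0.32 to 0.34, LRP5 from -0.44 to 0.018 and LRP6 from -0.039 to 0.13. With siRNA B, FZD1 ran from -0.33 to 0.78, FZD2 from -0.49 to 0.41 and FZD6 from -0.11 to 0.13. Between the siRNAs, FZD1 ran from -0.088 to 1.02 and LRP5 from -0.034 to 0.42. Settings with the siRNA arrays as 1 group give no value for a single siRNA, and for both siRNAs the groups compared are all groups.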
